A study of Mus musculus with 6 samples.

Results

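Bile acid synthesis and transport was followed here through 10 genes of mouse liver, chosen by symbol from the count files: Cyp7a1, Cyp8b1, Cyp27a1, Cyp7b1, Hsd3b7, Akr1d1, Baat, Abcb11, Slc10a1 and Nr0b2. All 10 were present among the 23282 rows of the files and all 10 were among the 12505 rows with enough counts to test. By its title, the series concerns the effect of atractylodin, a polyacetylene of Atractylodes rhizomes, on diet-induced fatty liver. The animals were male C57BL/6N mice (C57BL/6 in the sample labels), 8 weeks old when a high-fat diet of 12 weeks began. After 8 weeks of the diet they were dosed by mouth on 5 days per week for 4 weeks, with vehicle in one group and atractylodin at 10 mg/kg in the other. Each group had 3 liver libraries made with QuantSeq, which sequences the 3' end of transcripts. No group on another diet was part of the comparison, so both groups share the high-fat diet. Whether the 3 libraries of a group stand for 3 animals is not stated, so every p-value refers to the spread among libraries, which may be technical.

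The liver makes bile acids from cholesterol by a classical route, which opens with Cyp7a1, and an alternative route, in which Cyp27a1 and Cyp7b1 act. Cyp8b1 adds the hydroxyl group that leads to cholic acid, Hsd3b7 and Akr1d1 change the sterol rings, and Baat joins the acid to taurine or glycine. Slc10a1 takes bile acids up from blood and Abcb11 exports them into bile. Bile acids restrain their own synthesis through the receptor FXR (Nr1h4), which induces the repressor SHP (Nr0b2), and through an intestinal FGF signal read by Fgfr4 and Klb.

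The total count was 1831461 in vehicle 1 and 9871762 to 12565393 in the other 5 libraries, so vehicle 1 was the shallowest. It also stood apart within its group on the first principal component of the 500 most variable rows, at -39.5, where the other vehicle libraries were at -1.27 and -0.47 and the atractylodin libraries at 12.6 to 15.2. A count of 3 equalled 1.64 CPM (counts rescaled so that libraries of unequal depth can be compared) in vehicle 1 and at most 0.304 CPM elsewhere, and the lowest count of a member was 46, for Nr0b2 in vehicle 1. Levels below are CPM with library sizes scaled by TMM, a method that assumes most genes are unchanged. Hepatocyte markers were abundant in both groups, with albumin at 54155 ± 1488 CPM in vehicle and 52148 ± 4171 CPM in atractylodin libraries (SD, n = 3 each). Of 7 listed genes of intestine and pancreas, Fgf15, Fabp6 and Prss1 had no count in any library. Cela1 was counted in every library and did not pass (group means: vehicle 18.4, atractylodin 11.3 CPM, edgeR adjusted p = 0.0826). Vil1, Pnlip and Cpa1 were too low to test, though Pnlip reached 19 counts in atractylodin 1.

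With atractylodin, the alternative-route enzyme gene Cyp7b1 rose, and the ring-modifying enzyme genes Hsd3b7 and Akr1d1 and the bile salt export pump gene Abcb11 fell. The rise of Cyp7b1 was 1.67-fold and the falls were 1.26-fold for Hsd3b7, 1.47-fold for Akr1d1 and 1.37-fold for Abcb11. The other 6 members did not pass. The threshold was an adjusted p of 0.05 in edgeR's quasi-likelihood test over all tested rows, which 7.25% of rows passed, 3.92% higher and 3.33% lower with atractylodin. Over all tested rows 490 were called higher and 416 lower, but 312 and 707 when libraries were scaled by total counts, under which the same 4 members were called in the same directions. The median log2 fold change was -0.06 over the members and -0.0015 over all tested rows. The vehicle and atractylodin values were fully separated for 5 of the 10 members, 4 with atractylodin below and 1 above, while this held for 26.2% of all tested rows, 12.6% below and 13.5% above. In bulk liver RNA, fewer cells of a type and less RNA per cell cannot be told apart.

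The call of every one of these 4 genes was lost in some of the 6 fits that left out 1 library. Fits without 1 library called 0 to 2 members higher and 0 to 2 lower. Only Abcb11 passed without vehicle 1, only Hsd3b7 without vehicle 2 and none in edgeR without vehicle 3, where 5 members had an unadjusted p under 0.05 (with all libraries DESeq2 called 4 members and limma-voom 3). The share of all rows under that unadjusted threshold without vehicle 3 was not computed. With all libraries 5 members were under it in edgeR, beside at least 2670 of the 12505 tested rows. Without atractylodin 1 the calls were rises of Cyp7b1 and Cyp27a1, without atractylodin 2 falls of Akr1d1 and Hsd3b7, and without atractylodin 3 a rise of Cyp7b1 and a fall of Abcb11.

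**Figure D1:**
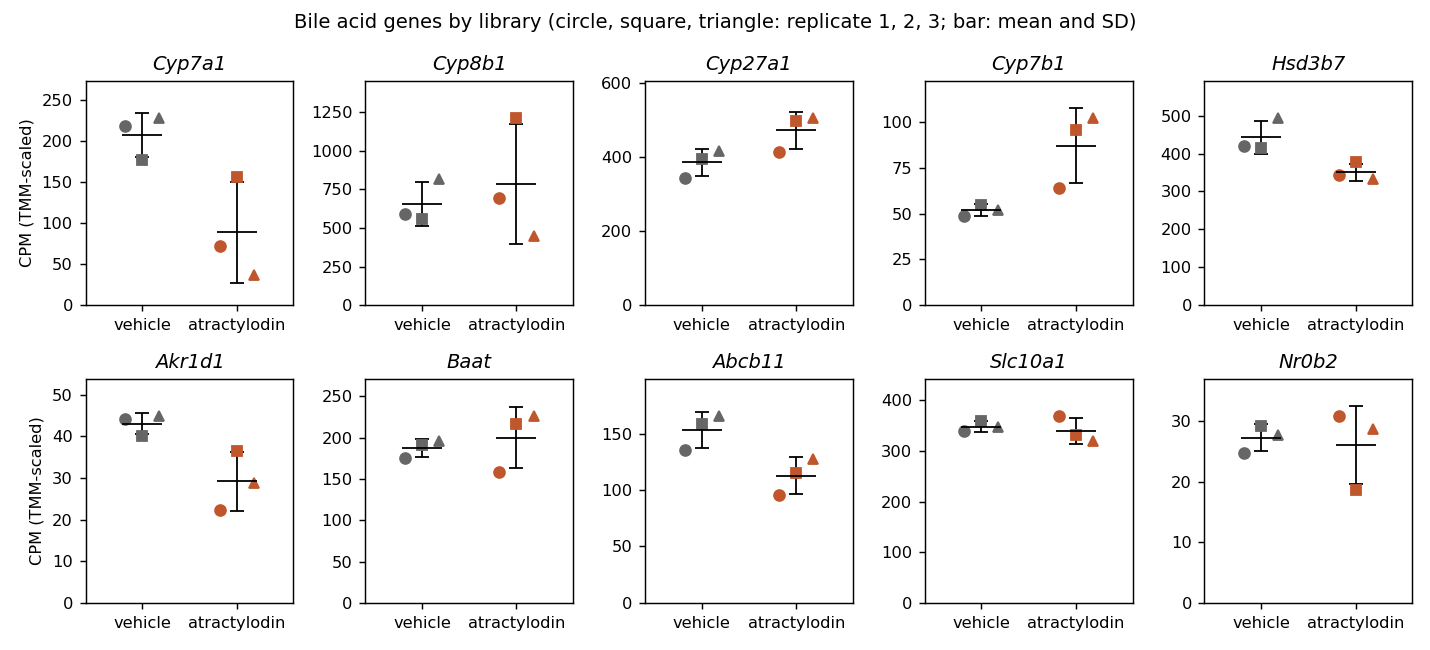
Level of each of the 10 members in every library, in TMM-scaled CPM on axes that start at 0, with vehicle in grey, atractylodin in orange, and a bar for the mean and SD of 3 libraries. The groups do not overlap for Cyp7a1, Cyp7b1, Hsd3b7, Akr1d1 and Abcb11, and the atractylodin libraries spread widely for Cyp7a1 and Cyp8b1.

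Cyp7a1, the rate-limiting enzyme of the classical route (ENSMUSG00000028240.2, GRCm38 chromosome 4, 6265612 to 6275633, minus strand), stood at 218, 176 and 227 CPM in vehicle 1, 2 and 3. It stood at 72.2, 156 and 36.9 CPM in atractylodin 1, 2 and 3. Every atractylodin library lay below every vehicle library, but atractylodin 2 came close to vehicle 2 while atractylodin 3 was the lowest of all. The means were 207 ± 27.2 and 88.5 ± 61.3 CPM (SD, n = 3). The log2 fold change was -1.23 ± 0.60 (SE; 95% interval -2.85 to 0.39) and did not pass (edgeR adjusted p = 0.347), an interval that spans both a large decrease and a small increase. With limma-voom the gene passed (log2 -1.48, adjusted p = 0.0338), while over all its alternatives the estimate ran from -1.92 to -0.85 and the adjusted p from 0.0338 to 0.554.

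The highest of the atractylodin libraries held 4.24 times the Cyp7a1 level of the lowest, against 1.29 times among vehicle libraries. Its coefficient of variation was 69.3% with atractylodin and 13.1% with vehicle, where the median over all tested rows was 14.2% and 14.7%. For Cyp8b1 it was 49.8% with atractylodin, second to Cyp7a1 among the members, and 21.6% with vehicle, the widest among them. The difference in spread was not tested.

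Cyp8b1, the sterol 12-alpha-hydroxylase (chromosome 9, 121914356 to 121916305, minus strand), was measured at 589, 558 and 817.5 CPM in vehicle 1, 2 and 3. The atractylodin libraries held 694, 1209 and 445 CPM. Atractylodin 2 was the highest and atractylodin 3 the lowest of all 6, so the atractylodin values enclosed the vehicle values. The log2 fold change was 0.26 ± 0.44 (SE; 95% interval -0.94 to 1.45, edgeR adjusted p = 0.805), and it turned to -0.20 without atractylodin 2. Atractylodin 2 was thus the highest and atractylodin 3 the lowest of their group for both Cyp7a1 and Cyp8b1.

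Cyp27a1, the mitochondrial sterol 27-hydroxylase of the alternative route (chromosome 1, 74713574 to 74737892, plus strand), stood at 344.5, 394 and 417.5 CPM with vehicle and 415, 498 and 504.5 CPM with atractylodin. Only atractylodin 1 overlapped the vehicle range. For Cyp27a1 the log2 fold change was 0.29 ± 0.10 (SE; 95% interval 0.07 to 0.51) and did not pass over all genes (edgeR adjusted p = 0.105). It passed without atractylodin 1 (adjusted p = 0.0427) and without a filter on low counts (adjusted p = 0.0353), and the adjusted p ran up to 0.343 over its alternatives.

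Cyp7b1, the oxysterol 7-alpha-hydroxylase of the alternative route (ENSMUSG00000039519.6, chromosome 3, 18071950 to 18243338, minus strand), stood at 48.5, 54.8 and 52.2 CPM in vehicle 1, 2 and 3. It stood at 63.9, 95.5 and 101.9 CPM in atractylodin 1, 2 and 3. All atractylodin libraries were above all vehicle libraries, and atractylodin 1 lay nearest to them. The means were 51.8 ± 3.18 and 87.1 ± 20.4 CPM (SD, n = 3), and the log2 fold change was 0.74 ± 0.16 (SE, edgeR adjusted p = 0.0148). The call was lost without vehicle 1, vehicle 2, vehicle 3 or atractylodin 2, with adjusted p of 0.0865, 0.0536, 0.0732 and 0.0512. The estimate ran from 0.61 to 0.92 in the fits without 1 library.

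A ratio of 2 genes within a library does not depend on how libraries are scaled, so 3 such ratios were computed. That of Cyp7a1 to Cyp7b1 set the routes against each other. The log2 ratio of Cyp7a1 to Cyp7b1 counts was 2.16, 1.69 and 2.12 in vehicle 1, 2 and 3, and 0.18, 0.71 and -1.46 in atractylodin 1, 2 and 3. All 3 atractylodin libraries lay below the vehicle libraries, and atractylodin 3 was the only library with more Cyp7b1 than Cyp7a1 counts. The mean was 1.99 ± 0.27 with vehicle and -0.19 ± 1.13 with atractylodin (SD, n = 3), a difference of -2.18. The exact two-sided permutation test gave p = 0.1, the smallest that 3 libraries against 3 allow, and 0.15 after Benjamini-Hochberg adjustment over the 3 ratios computed. With Cyp7a1 lower and Cyp7b1 higher in every atractylodin library, this separation and its p followed from the values of the 2 genes. They add no evidence beyond those values.

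The log2 ratio of Cyp8b1 to Cyp27a1 was 0.75 ± 0.24 with vehicle and 0.61 ± 0.74 with atractylodin (SD, n = 3), with exact permutation p = 0.8, adjusted p = 0.8. The atractylodin libraries held 0.74, 1.28 and -0.18 and enclosed the vehicle libraries. Without atractylodin 3 the difference turned from -0.13 to 0.26.

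**Figure D2:**
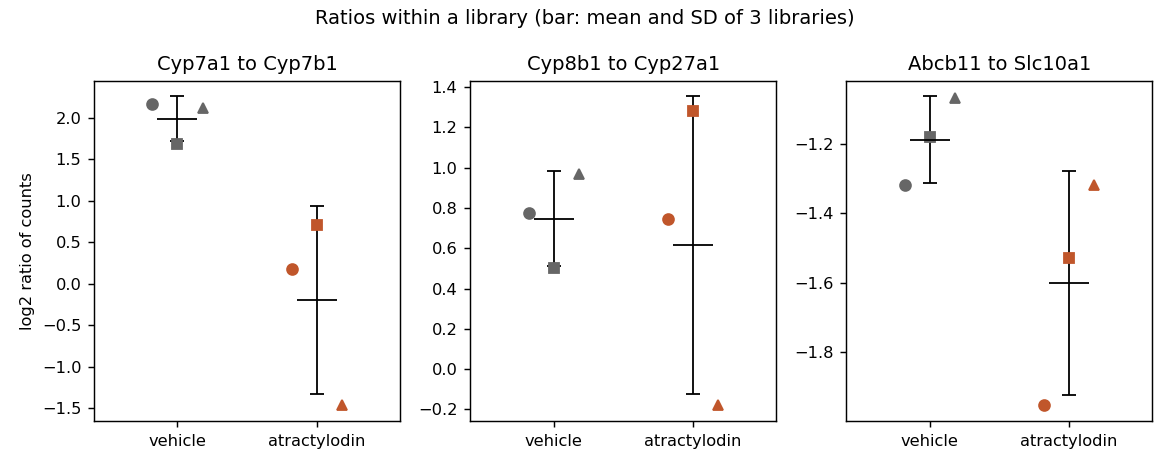
Log2 ratio of raw counts (plus 0.5) of 2 genes within each library, with vehicle in grey, atractylodin in orange, and a bar for the mean and SD of 3 libraries (circle, square and triangle for replicate 1, 2 and 3). The ratio of Cyp7a1 to Cyp7b1 is lower in every atractylodin library than in every vehicle library, while that of Cyp8b1 to Cyp27a1 overlaps. For Abcb11 to Slc10a1 the groups all but touch, with atractylodin 3 at -1.3194 and vehicle 1 at -1.3179.

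Hsd3b7, the C27 sterol 3-beta-hydroxysteroid dehydrogenase that acts after 7-alpha-hydroxylation (ENSMUSG00000042289.11, chromosome 7, 127800604 to 127803802, plus strand), stood at 420, 415.5 and 493 CPM in vehicle 1, 2 and 3. It stood at 344, 376.5 and 334 CPM in atractylodin 1, 2 and 3. The groups did not overlap, though the gap between vehicle 2 and atractylodin 2 was small. The log2 fold change was -0.34 ± 0.10 (SE, edgeR adjusted p = 0.043). The call was lost without vehicle 1, vehicle 3, atractylodin 1 or atractylodin 3 (adjusted p = 0.0908, 0.251, 0.113 and 0.127), with limma-voom (adjusted p = 0.0517) and with the replicate number as a block (adjusted p = 0.0731). Exons of Gm49388 on the same strand and of 9430064I24Rik on the opposite strand overlap those of Hsd3b7, so reads may have been shared.

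Akr1d1, the delta4-3-ketosteroid 5-beta-reductase that gives bile acids their bent ring (ENSMUSG00000038641.12, chromosome 6, 37530173 to 37568815, plus strand), stood at 44.1, 40.2 and 44.9 CPM in vehicle 1, 2 and 3. It stood at 22.3, 36.5 and 28.7 CPM in atractylodin 1, 2 and 3. All atractylodin libraries were below all vehicle libraries, with atractylodin 2 the nearest to them, as for Cyp7a1. The means were 43.1 ± 2.52 and 29.2 ± 7.13 CPM (SD, n = 3) and the log2 fold change was -0.56 ± 0.16 (SE, edgeR adjusted p = 0.0389). The call was lost without any one of vehicle 1, 2 or 3 or atractylodin 1 or 3 (adjusted p 0.0678 to 0.168) and with limma-voom (adjusted p = 0.0523), and without atractylodin 2 the estimate was -0.74 (adjusted p = 0.00646).

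Baat, the conjugating bile acid-CoA:amino acid N-acyltransferase (chromosome 4, 49489422 to 49506557, minus strand), stood at 175, 190.5 and 196 CPM with vehicle and 158, 216 and 226 CPM with atractylodin. The atractylodin values lay on both sides of the vehicle values. Its log2 fold change was 0.09 ± 0.12 (SE; 95% interval -0.16 to 0.35, edgeR adjusted p = 0.721), and it was -0.0052 without atractylodin 3.

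Abcb11, the bile salt export pump of the canalicular membrane (ENSMUSG00000027048.15, chromosome 2, 69238282 to 69342616, minus strand), stood at 136, 158.5 and 165.5 CPM in vehicle 1, 2 and 3. It stood at 95.2, 115 and 128 CPM in atractylodin 1, 2 and 3. The groups did not overlap, with atractylodin 3 and vehicle 1 the closest. The means were 153 ± 15.6 and 113 ± 16.5 CPM (SD, n = 3), and the log2 fold change was -0.45 ± 0.11 (SE, edgeR adjusted p = 0.0198). The call was lost without vehicle 2, vehicle 3, atractylodin 1 or atractylodin 2 (adjusted p = 0.0743, 0.128, 0.0799 and 0.0517), while it held in every fit of all 6 libraries by another tool, scaling, filter or block. Exons of Gm13613 and Gm13614 on the opposite strand overlap those of Abcb11, and the strand setting of the counting is not given in the sources used here.

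Slc10a1, the sodium-dependent uptake transporter NTCP of the sinusoidal membrane (chromosome 12, 80953183 to 80968705, minus strand), had the estimate nearest to 0. It stood at 339, 359 and 347 CPM with vehicle and 369, 332 and 319 CPM with atractylodin, and the groups overlapped. Its log2 fold change was -0.04 ± 0.09 (SE; 95% interval -0.23 to 0.16, edgeR adjusted p = 0.866), with a positive estimate of 0.0095 without atractylodin 3. The log2 ratio of Abcb11 to Slc10a1, export pump to uptake transporter, was -1.32, -1.18 and -1.07 in vehicle 1, 2 and 3 and -1.95, -1.53 and -1.32 in atractylodin 1, 2 and 3. The highest atractylodin value and the lowest vehicle value were nearly equal at this precision, and the difference of means was -0.41. The exact two-sided permutation test gave p = 0.1, the smallest possible, and an adjusted p of 0.15.

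Nr0b2, the small heterodimer partner SHP that represses bile acid synthesis genes (chromosome 4, 133553376 to 133556536, plus strand), stood at 24.8, 29.2 and 27.7 CPM with vehicle and 30.8, 18.7 and 28.6 CPM with atractylodin. The groups overlapped, and atractylodin 2 was the lowest of all 6 libraries. For Nr0b2 the log2 fold change was -0.08 ± 0.17 (SE; 95% interval -0.44 to 0.27, edgeR adjusted p = 0.826), and it was 0.11 without atractylodin 2. Atractylodin 2 was therefore the library of its group with the least Nr0b2 and the most Cyp7a1 and Cyp8b1, an order seen in 3 libraries and not tested.

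**Figure D3:**
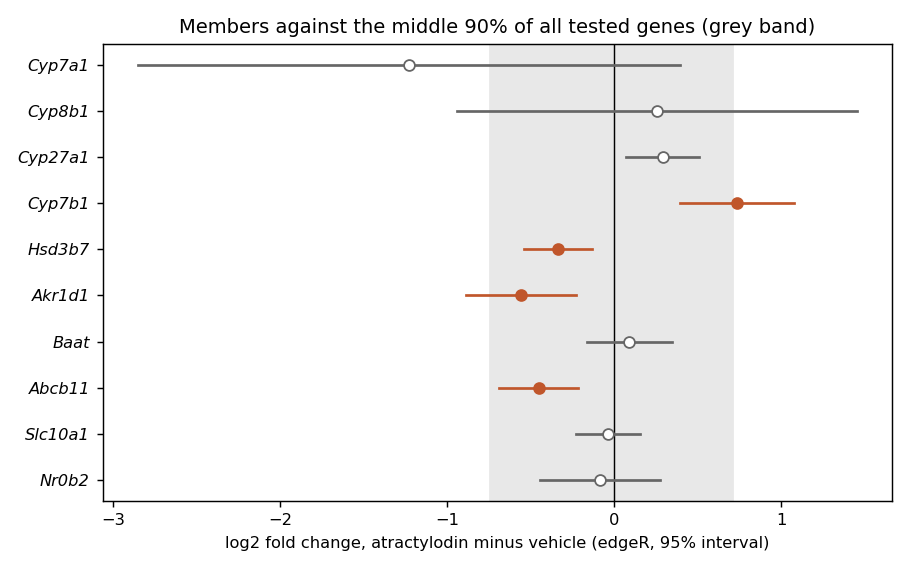
Log2 fold change of each member, atractylodin minus vehicle, with its 95% interval from edgeR; filled orange points have an adjusted p under 0.05, and the grey band spans the 5th to 95th percentile of all tested rows, -0.74 to 0.71. Cyp7a1 has the lowest estimate and the widest interval, and Cyp7b1 is the single filled point above 0.

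**Figure D4:**
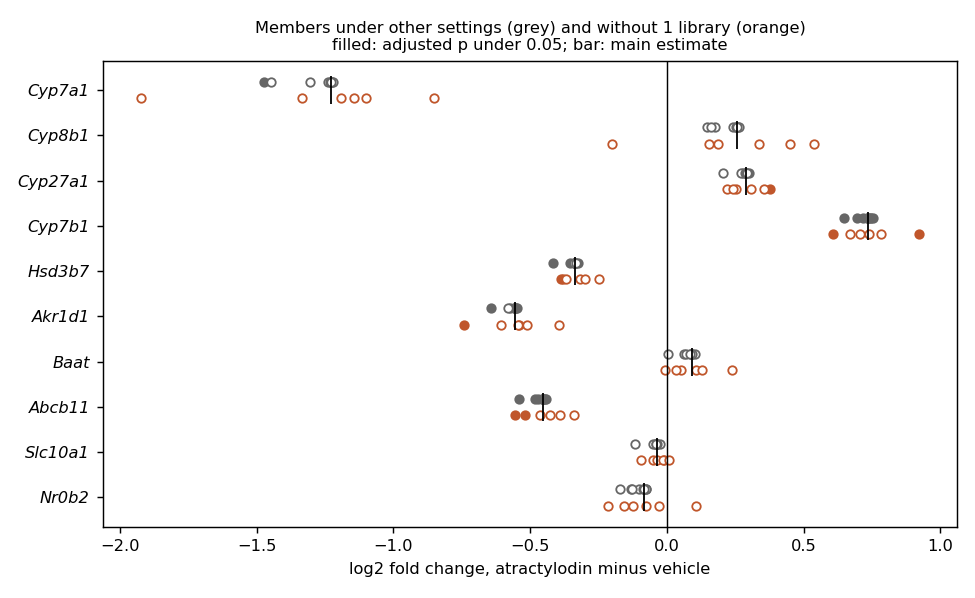
Log2 fold change of each member under the other tools, scalings, filters and block (grey) and in the 6 fits without 1 library (orange), filled where the adjusted p is under 0.05, with a bar at the main estimate. Cyp7a1, Hsd3b7, Akr1d1 and Abcb11 stay below 0 and Cyp27a1 and Cyp7b1 above 0 in all of them, while Cyp8b1, Baat, Slc10a1 and Nr0b2 cross 0.

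Promoters are shown for the 3 members that fell and for the 2 members whose windows held a match close to the transcription start, so that the letters can be read beside the values above. The sequences are from RefSeq on GRCm38.p6, whose promoter table held windows of 300 bases, from 250 before to 50 after the start, for 7 of the 10 members (not for Cyp7a1, Cyp7b1 and Baat). The 250 bases before the start are given 5′ to 3′ on the strand of the gene, and capitals mark motif matches. Abcb11 is from chr2:69342617-69342866 (minus strand), Hsd3b7 from chr7:127800359-127800608 (plus strand), Akr1d1 from chr6:37529923-37530172 (plus strand), Cyp8b1 from chr9:121916306-121916555 (minus strand) and Nr0b2 from chr4:133553126-133553375 (plus strand).
Abcb11: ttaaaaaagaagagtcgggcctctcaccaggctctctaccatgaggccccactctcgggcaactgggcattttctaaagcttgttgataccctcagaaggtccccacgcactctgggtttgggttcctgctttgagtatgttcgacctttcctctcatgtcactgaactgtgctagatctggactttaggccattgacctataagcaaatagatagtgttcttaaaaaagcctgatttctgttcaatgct
Hsd3b7: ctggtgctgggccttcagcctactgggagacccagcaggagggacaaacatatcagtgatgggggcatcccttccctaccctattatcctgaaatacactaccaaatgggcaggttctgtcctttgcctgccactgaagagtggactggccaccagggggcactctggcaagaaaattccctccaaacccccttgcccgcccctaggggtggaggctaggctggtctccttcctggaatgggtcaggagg
Akr1d1: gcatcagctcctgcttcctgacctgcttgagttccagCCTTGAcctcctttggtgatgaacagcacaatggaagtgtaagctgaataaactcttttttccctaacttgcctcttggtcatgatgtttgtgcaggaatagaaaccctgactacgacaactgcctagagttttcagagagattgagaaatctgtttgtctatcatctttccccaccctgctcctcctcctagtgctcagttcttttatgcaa
Cyp8b1: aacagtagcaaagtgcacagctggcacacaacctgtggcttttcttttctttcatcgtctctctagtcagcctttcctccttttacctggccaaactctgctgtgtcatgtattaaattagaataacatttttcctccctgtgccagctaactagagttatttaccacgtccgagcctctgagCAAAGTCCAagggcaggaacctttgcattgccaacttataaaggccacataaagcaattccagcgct
Nr0b2: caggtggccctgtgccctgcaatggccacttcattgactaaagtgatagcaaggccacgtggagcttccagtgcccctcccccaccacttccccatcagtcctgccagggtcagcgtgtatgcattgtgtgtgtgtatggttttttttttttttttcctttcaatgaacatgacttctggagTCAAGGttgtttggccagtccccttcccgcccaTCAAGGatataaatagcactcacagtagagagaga

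The windows were searched on both strands for exact matches only, with N as any base, so near matches were not counted. In Cyp8b1 the capitals are CAAAGTCCA, the core of an HNF4A site, which begins 67 bases before the start and is found in 0.475% of 32851 promoter windows. In Nr0b2 they are TCAAGG, the core of the LRH-1 (Nr5a2) element, which begins 68 bases and again 35 bases before the start. Akr1d1 holds the same core on the other strand, 213 bases before the start. This core, searched after the sequences had been seen, is in 14.4% of windows. The full LRH-1 element TCAAGGNCA (which contains the core), the HNF4A direct repeat DR1, the FXR inverted repeat IR1 and the HNF1 site had no match in the members' windows and are in 1.62%, 0.0396%, 0.00913% and 0.00913% of all windows. The printed Abcb11 letters hold a near match to IR1 that departs from it at a single base, which the exact search left out. No shortened form of IR1 was searched, and the share of all windows with such a near match was not computed. Whether FXR binds there was not tested. A match or near match is only a description of these letters.

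The rest of the pathway was followed in 54 further genes, of which 48 had enough counts to test. Of these 7 rose, 2 fell and 39 did not pass, with a median log2 fold change of 0.08, where 7.25% of all tested rows were called (3.92% higher and 3.33% lower). Without vehicle 1 the calls were 6 rises and 1 fall, and under scaling by total counts 7 rises and 5 falls. For 20 of the 48 all atractylodin libraries lay on 1 side of all vehicle libraries, above for 13 and below for 7, beside 26.2% of all tested rows (13.5% above and 12.6% below). Sult2a1, a sulfotransferase gene, had no count in any library, and Ch25h, Atp7b, Slc51a, Slc51b and Gpbar1 were too low to test.

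Among the other hydroxylases, Cyp39a1, which acts on 24-hydroxycholesterol (chromosome 17, 43667425 to 43751431), rose from 4.85, 6.78 and 13.0 CPM with vehicle to 18.5, 19.7 and 26.7 CPM with atractylodin. Its value in vehicle 1 rested on 9 counts. The groups did not overlap, and the log2 fold change was 1.25 ± 0.28 (SE, edgeR adjusted p = 0.0257), a call lost without vehicle 1, vehicle 2 or atractylodin 2 (adjusted p up to 0.0767). Cyp2c70, which makes the muricholic acids of mice, was at 169, 132 and 128 CPM with vehicle and 58.3, 96.0 and 181 CPM with atractylodin. Its groups overlapped because atractylodin 3 was the highest of the 6 libraries (edgeR adjusted p = 0.763).

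Side chain shortening takes place in peroxisomes, and 1 of 10 tested genes of this step fell, where 3.33% of all tested rows were called lower. The fall was that of Pex5, the import receptor for peroxisomal enzymes, from 57.1, 44.4 and 53.0 CPM to 33.5, 38.0 and 40.3 CPM, which do not overlap. Its log2 fold change was -0.44 ± 0.13 (SE, edgeR adjusted p = 0.0384), lost without vehicle 1, vehicle 3, atractylodin 1 or atractylodin 2 (adjusted p up to 0.175), in DESeq2, in limma-voom and with the replicate number as a block. At an unadjusted p under 0.05 stood 3 of the 10, all with lower estimates: Pex5, the sterol carrier gene Scp2 and the racemase gene Amacr. By edgeR p, Amacr ranked 2670 of the 12505 tested rows, so at least that many rows stood under the same threshold. Scp2 was at 2868, 2917 and 2699 CPM with vehicle and 2353, 2482 and 2381 CPM with atractylodin, without overlap (log2 -0.23 ± 0.09, SE, edgeR adjusted p = 0.144), and Amacr overlapped (log2 -0.24 ± 0.11, SE, edgeR adjusted p = 0.231). The other enzyme genes of the step, among them Acox2 (log2 -0.06 ± 0.10), Hsd17b4 (0.09 ± 0.09) and the bile acid-CoA ligase gene Slc27a5 (-0.06 ± 0.10, all SE), did not pass.

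Transporters other than Abcb11 did not pass in edgeR. At an unadjusted p under 0.05 stood 2 of the canalicular exporters, 3 of the sinusoidal uptake genes and 1 of the efflux genes, beside at least 2670 of the 12505 tested rows. DESeq2 and limma-voom each called 1 of these transporters, Slco1a1. The 6 tested canalicular exporters had positive estimates under TMM scaling with a median of 0.11, while under scaling by total counts those of Abcg5, Atp8b1 and Abcb4 turned negative and the median was 0.03. They were led in order of p by Abcc2, the organic anion pump MRP2 (430, 473 and 453 CPM with vehicle, 546, 602 and 481.5 CPM with atractylodin, edgeR adjusted p = 0.124). Of 4 sinusoidal uptake genes, Slco1a1 stood at 92.0, 67.6 and 63.3 CPM with vehicle and 139, 210 and 125.5 CPM with atractylodin. Its groups did not overlap, its log2 fold change was 1.13 ± 0.25 (SE) and its edgeR adjusted p was 0.0631. It passed in DESeq2, limma-voom, the fits with no or another filter and that with the replicate block, and without vehicle 1, atractylodin 2 or atractylodin 3, with adjusted p from 1.40e-13 to 0.204 over its alternatives. Among the 3 tested basolateral efflux genes Abcc3 had the smallest p (log2 0.25 ± 0.12, edgeR adjusted p = 0.224). Scaling by total counts, which moved the median of all tested rows to -0.09, kept the estimates of Abcc2, Slco1a1 and Abcc3 above 0.

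The genes listed here under bile acid sulfation and detoxification moved in both directions, with 2 rises and 1 fall among 4 tested. Over all tested rows 3.92% were called higher and 3.33% lower. Ephx1, the microsomal epoxide hydrolase (chromosome 1, 180976210 to 181020904), rose from 219, 278 and 290 CPM to 515, 520.2 and 501 CPM (log2 0.96 ± 0.10, edgeR adjusted p = 3.31e-05). Ugt2b5, a glucuronosyltransferase, rose from 320, 449 and 381 CPM to 616, 818 and 741 CPM (log2 0.91 ± 0.13, adjusted p = 0.00111). Cyp3a11, which hydroxylates bile acids and drugs, fell from 370, 482 and 278 CPM to 127, 132 and 136 CPM (log2 -1.52 ± 0.18, adjusted p = 0.0032). None of these groups overlapped, and each call held in every fit without 1 library. Ugt2b5 and Cyp3a11 have close paralogs, and Gm36961 overlaps exons of Ephx1, so reads may have been shared.

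Regulators gave 4 rises among 14 tested, where 3.92% of all tested rows were called higher. DESeq2 and limma-voom called the same 4. Hnf4a, the nuclear receptor that activates hepatocyte genes including Cyp7a1 and Cyp8b1 (chromosome 2, 163506808 to 163572910), rose from 321, 270.2 and 291 CPM to 462, 439 and 533 CPM. Its groups did not overlap and its log2 fold change was 0.71 ± 0.10 (SE, edgeR adjusted p = 0.000405). The xenobiotic receptor genes Nr1i2 (PXR; 76.0 ± 3.86 to 117.6 ± 5.47 CPM, adjusted p = 0.000568) and Nr1i3 (CAR; 131.7 ± 12.0 to 192 ± 26.1 CPM, adjusted p = 0.00449) also rose. So did Mafg, whose product represses bile acid synthesis genes (137 ± 6.85 to 186 ± 19.2 CPM, SD, n = 3, edgeR adjusted p = 0.00954), a call lost without vehicle 1 or vehicle 3 (adjusted p up to 0.0589). Exons of Tomm40l overlap those of Nr1i3 on the opposite strand and exons of Sirt7 those of Mafg on the same strand.

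The receptors of the feedback loop did not pass. Nr1h4, encoding FXR, stood at 130, 110.3 and 114 CPM with vehicle and 102, 98.4 and 106 CPM with atractylodin, without overlap (log2 -0.19 ± 0.10, edgeR adjusted p = 0.252). Nr5a2, encoding LRH-1, was at 57.7 ± 5.23 and 61.6 ± 7.88 CPM (SD, n = 3, edgeR adjusted p = 0.764). None of 4 tested genes of FGF and membrane receptor signalling passed in edgeR, and none in DESeq2 or limma-voom. In edgeR 2 of them had an unadjusted p under 0.05, beside at least 2670 of the 12505 tested rows. Klb, the FGF co-receptor beta-klotho, had the smallest p, at 12.9, 13.4 and 12.1 CPM with vehicle and 15.8, 19.1 and 17.7 CPM with atractylodin (log2 0.46 ± 0.17, edgeR adjusted p = 0.114), and Fgfr4 was at 11.4 ± 2.89 and 10.7 ± 2.01 CPM (SD, n = 3).

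**Figure D5:**
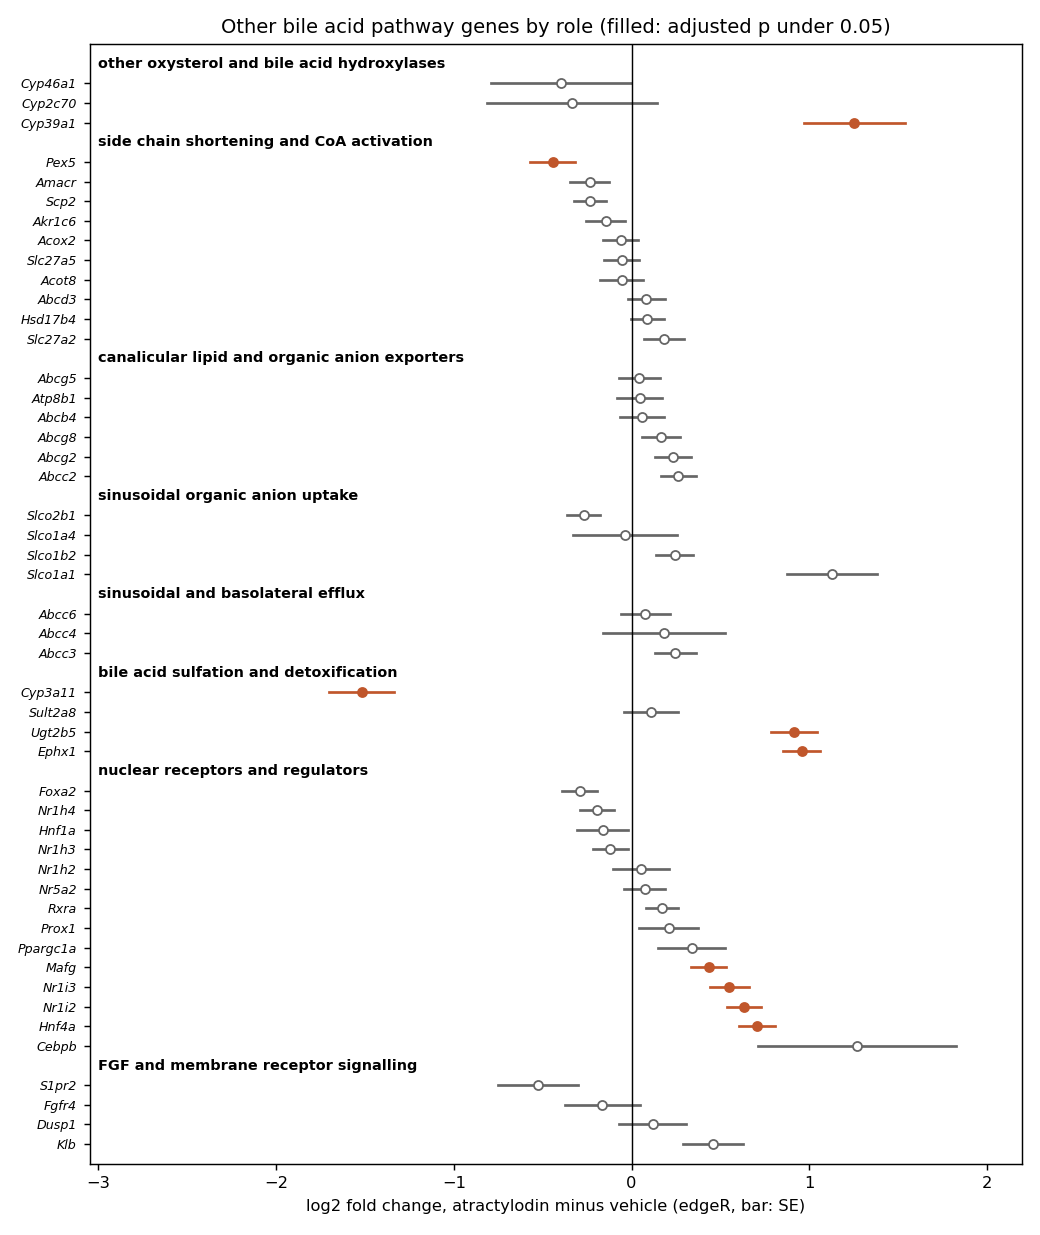
Log2 fold change, atractylodin minus vehicle, of the 48 tested pathway genes beyond the 10 members, grouped by role, with the SE from edgeR as a bar and filled orange points for an adjusted p under 0.05. Filled points above 0 are Cyp39a1, Ugt2b5, Ephx1, Hnf4a, Nr1i2, Nr1i3 and Mafg, and those below 0 are Pex5 and Cyp3a11.

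Markers of other cells and of liver zones were measured beside the members. Their calls stand beside 3.92% of all tested rows called higher and 3.33% called lower. Of 10 cholangiocyte and gallbladder markers 5 were tested and 3 fell (Sox9, Spp1 and Tstd1), while Epcam and Slc10a2 did not pass (edgeR adjusted p = 0.969 and 0.400). The summed level of the list was 70.0 to 87.2 CPM with vehicle and 35.6 to 40.8 CPM with atractylodin. Most of it was Sox9, Spp1 and Tstd1, with means of 28.3, 14.9 and 24.4 CPM with vehicle and 14.3, 6.68 and 10.8 CPM with atractylodin. The defining duct markers Krt7 and Krt19 were at most 0.77 CPM on average in either group, Epcam was at 1.38 and 1.82 CPM, and Cftr was at 0 in all vehicle libraries. Of 9 pericentral markers 2 rose, 3 fell and 4 did not pass, and the summed level of the list overlapped (8816 to 9196 and 8810 to 10404 CPM). Of 8 periportal markers 1 rose and 1 fell, and the summed level was 2258 to 2977 CPM with vehicle and 4596 to 5445 CPM with atractylodin, of which Pck1 held 1145 ± 301 and 3644 ± 305 CPM (SD, n = 3). None of 8 macrophage markers passed in edgeR, and none in DESeq2 or limma-voom (summed level 233 to 332 and 194 to 292 CPM). In edgeR 2 of these markers had an unadjusted p under 0.05, beside at least 2670 of the 12505 tested rows. Of 6 endothelial markers 1 rose and 2 fell in edgeR (summed level 340 to 352 and 305 to 340 CPM). DESeq2 and limma-voom each called 1 rise (Lyve1) and 1 fall (Stab2), without that of Ptprb. The part of these cells and zones in the members' changes was not tested.

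Rows with the pattern most like a member were sought by Pearson's r of log2 CPM over the 6 libraries among 9560 rows outside the lists, as a description only. For Cyp7a1 these were Rnf207 (r = 0.994), the presenilin gene Psen2 (r = 0.993) and the gamma-glutamyl hydrolase gene Ggh (r = 0.993). Psen2 stood at 365.5, 364 and 374.5 CPM with vehicle and 205 to 324 CPM with atractylodin, and in that group atractylodin 2 was again the nearest to vehicle and atractylodin 3 the farthest. Its log2 fold change was -0.50 (edgeR adjusted p = 0.0458), while Rnf207 (-0.17, adjusted p = 0.619) and Ggh (-0.40, adjusted p = 0.253) did not pass. For Nr0b2 they were 6430548M08Rik (r = 0.981), the copper transport gene Slc31a2 (r = 0.976) and Entpd7 (r = 0.963), each lowest in atractylodin 2. These rows were low, between 2.30 and 8.07 CPM, so their values in the shallow vehicle 1 rested on few counts. The 6 libraries share 2 treatments, and these rows were picked as the highest of 9560 values of r.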

How the data were processed

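Liver RNA (500 ng per library) of 3 vehicle and 3 atractylodin samples was made into Lexogen QuantSeq 3' libraries, per the labels' protocols. The values the authors deposited are unnormalized counts, 1 file per library and 1 row per gene symbol. The submitters' processing notes name Bowtie2, bedtools and mm10, with no role or version. The annotation, the strand setting and the handling of reads that match several genes or share molecular identifiers are not given in the sources used here, so floors cover counting error only.

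Groups came from the sample titles. No 2 libraries agreed within sampling noise (chi-square per degree of freedom of at least 2.75). Rows were filtered with filterByExpr, scaled by TMM and tested on all rows with the robust quasi-likelihood F-test of edgeR 4.0.16 under R 4.3.3, atractylodin against vehicle without covariates, with Benjamini-Hochberg adjustment at 0.05. The SE was taken as the size of the log2 fold change over the root of F. Ratios used counts plus 0.5. Positions are from GENCODE M21 on GRCm38, also called mm10. On simulated counts for 3 libraries against 3 over 12309 genes, 72 of 97 genes changed 2-fold and 24 of 98 changed 1.5-fold were recovered, and 4 of 100 calls were false. The simulation used the trended dispersion, without excess spread particular to a gene or library, so rates in the real data need not be the same.

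The replicate numbers of the titles did not pair the libraries. The members and lists were chosen with earlier results of these data known. The rule for named genes took all members, every passing pathway gene and, in a role without one, the gene with the smallest p; genes outside it were chosen with their values in view. Alternatives were DESeq2 1.42.0, limma-voom (limma 3.58.1), RLE and upper quartile scaling, total counts, a filter at a mean CPM of 5, no filter, no Rn45s row, the replicate number as a block and each library left out. The labels give no batch. Figures were drawn with matplotlib 3.10.9.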

Additional observations from a re-analysis of the deposited data

How the results depend on the processing

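Over the 23 genes with alternatives, 345 gene estimates under other settings were compared with the main one: 298 kept direction and side of the threshold, 32 lost the call, 11 gained it and 4 changed sign. The sign changes were of Cyp8b1 and Nr0b2 without atractylodin 2 and of Baat and Slc10a1 without atractylodin 3. Without 1 library the log2 fold change ran from -0.20 to 0.54 for Cyp8b1, from -0.21 to 0.11 for Nr0b2, from -0.0052 to 0.24 for Baat and from -0.094 to 0.0095 for Slc10a1. The difference in the log2 ratio of Cyp8b1 to Cyp27a1 ran from -0.47 to 0.26, positive without atractylodin 3, and a pseudocount of 5 kept the direction of all 3 ratios. Members called higher numbered 1, 2 with no filter and 0 to 2 without 1 library; members called lower numbered 3, and 0 to 2 without 1 library. Pathway genes called lower numbered 2, but 1 in DESeq2, in limma-voom and with the replicate block, 5 under scaling by total counts and 1 to 2 without 1 library; those called higher numbered 7 and ran from 6 to 9. Over all tested rows 490 were called higher and 416 lower, 312 and 707 under scaling by total counts, 735 and 610 with no filter, and 236 to 400 and 215 to 362 without 1 library. The cause of these changes was not tested, except that a fit without 1 library has fewer samples. Deviations of same-numbered libraries from their group means correlated at -0.03, -0.09 and 0.02. This gave no sign that the replicate number pairs the libraries, but it cannot exclude pairing. With the number as a block 2 members were called lower (Hsd3b7 was lost) and 1 higher, and 9 pathway genes higher and 1 lower. Depth limits vehicle 1 most, where the member Nr0b2 rested on 46 counts and the pathway gene Cyp39a1 on 9.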
